A study of Mus musculus with 4 samples.

Results

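The unfolded protein and integrated stress response was described here through 36 genes, found by symbol in the platform's probe annotation among 19938 genes with a probe set of 1 symbol. Of these, 8 form the ATF4 side (Atf4, Ddit3, Chac1, Trib3, Asns, Atf3, Ppp1r15a and Ddit4), and 28 form the chaperone and XBP1 side. RNA came from colon epithelial cells of C57BL/6 mice aged 6 to 8 weeks and sex-matched. There was 1 array each for mice lacking both Bmi1 and Mel18 in the intestinal epithelium (Bmi1ΔIEC Mel18ΔIEC, called DKO), for Bmi1ΔIEC mice, for Mel18ΔIEC mice and for WT mice. Bmi1 and Mel18 (gene symbol Pcgf2) encode subunits of the chromatin repressor Polycomb repressive complex 1. All 4 groups, WT included, had received the carcinogen azoxymethane (10 mg/kg, injected into the peritoneum) and, starting 5 days later, 3.5% dextran sulfate sodium in the drinking water for 5 days, which injures the colon lining. Cells were taken on day 12. The sources used here do not state the Cre driver, the deleted exons or how many animals each array represents.

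Proteins that enter the endoplasmic reticulum (ER) are folded there by chaperones such as BiP (Hspa5) and by disulfide isomerases. When unfolded proteins build up, the sensors IRE1, ATF6 and PERK respond: IRE1 splices Xbp1 mRNA, cleaved ATF6 enters the nucleus, and both raise chaperone and degradation genes. PERK (Eif2ak3) phosphorylates the translation factor eIF2, which slows protein synthesis but favours translation of ATF4. Kinases that sense amino acid shortage, viral RNA or heme feed into the same eIF2 step, so the ATF4 side is called the integrated stress response. In the gut, goblet and Paneth cells carry a heavy secretory load, and the IRE1 paralog Ern2 is made in mucus-secreting epithelium. The arrays measure transcript levels, so they show neither Xbp1 splicing, nor ATF6 cleavage, nor eIF2 phosphorylation.

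Values are the authors' RMA intensities, given here as log2. A level can be compared between arrays for a gene, but not between genes. With 1 array per genotype, no difference has a test or a replicate error. A gene was analysed if its log2 intensity reached 6 on at least 1 array, which 12526 genes and 35 of the 36 members did. Genes at least 1.5-fold apart (0.58 on the log2 scale) were counted. An error scale, taken from the contrast among the arrays with the least spread and so still holding real differences, was 0.35 for DKO minus the mean of both single deletions and 0.41 for a difference of 2 arrays.

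Several properties of the arrays bear on every comparison. DKO stood apart, with Pearson correlations of 0.878 to 0.906 with the other arrays across genes, against 0.978 to 0.982 among the others. Bmi1 had log2 intensities of 7.64 on DKO, 7.43 on Bmi1ΔIEC, 6.999 on Mel18ΔIEC and 7.25 on WT, and Pcgf2 had 6.81, 6.72, 6.84 and 6.96 on the same arrays, so neither probe set checks the genotype labels. The WT array carried secretory transcripts of the seminal vesicle, a gland outside the colon: 11 genes of such a list summed to an intensity of 6128 on DKO, 2093 on Bmi1ΔIEC and 2590 on Mel18ΔIEC, against 20704 on WT. All 11 were above the floor on WT, while 9 on DKO, 7 on Bmi1ΔIEC and 9 on Mel18ΔIEC were under it, and the DKO sum came mostly from Spink1 (12.34 on DKO and 11.33 on WT) and Ceacam10 (9.64 on DKO and 11.03 on WT). DKO was therefore set first against the mean of both single deletions, which leaves out WT, and then against WT. That reference is not wholly free of the gland's transcripts. Svs2 had 6.82 and Svs5 6.18 on Bmi1ΔIEC, against 4.32 and 3.89 on Mel18ΔIEC and 12.02 and 11.59 on WT. Epithelial markers such as Epcam and Krt8 were present on all arrays, and 0 of 11 were 1.5-fold apart between DKO and the single deletions. White blood cell markers were mostly higher on DKO. Against the mean of both single deletions, 11 of 12 neutrophil and 12 of 13 mononuclear phagocyte genes were at least 1.5-fold higher (14.0% of all genes). The medians were 2.23 and 2.30. For neutrophil markers that mean joins 2 unlike arrays, as Bmi1ΔIEC stood above Mel18ΔIEC by a median of 2.56. Neutrophil markers summed to 24682 on DKO, 14072 on Bmi1ΔIEC and 1930 on Mel18ΔIEC, so DKO lay closer to Bmi1ΔIEC. The isolate was not described as sorted, and in such bulk RNA fewer cells of a type and less RNA per cell cannot be told apart.

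Most of the ATF4 side stood higher on DKO, while the chaperone and XBP1 side held few genes that did. Of the 7 ATF4-side genes analysed, 5 were at least 1.5-fold higher on DKO than on the mean of both single deletions and 0 were lower, with a median difference of 0.89. Over all genes analysed, 14.0% were that much higher and 18.8% that much lower, with a median of -0.07. On the chaperone and XBP1 side, 1 of 28 was higher and 5 were lower, with a median of -0.14, so both shares were near or under those of all genes. After cyclic loess scaling, 17.2% of all genes were higher and 14.3% lower, the chaperone and XBP1 side had 2 higher and 3 lower, and its median was 0.06, so the sign of that median rests on the scaling. Without such scaling the medians of the 2 sides lay 1.03 apart on the log2 scale. Against WT the counts were 5 of 7 higher and 0 lower on the ATF4 side (median 0.70), and 0 of 28 higher and 4 lower on the chaperone and XBP1 side (median -0.16), where 14.3% of all genes were higher and 20.2% lower. At 2-fold, 2 of 7 ATF4-side genes were higher than on the single deletions (7.33% of all genes) and 0 of 28 on the other side were lower (6.51%), and against WT 2 of 7 were higher (7.33%) and 0 of 28 lower (8.19%). These comparisons share the DKO array, so they do not check each other.

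**Figure D1:**
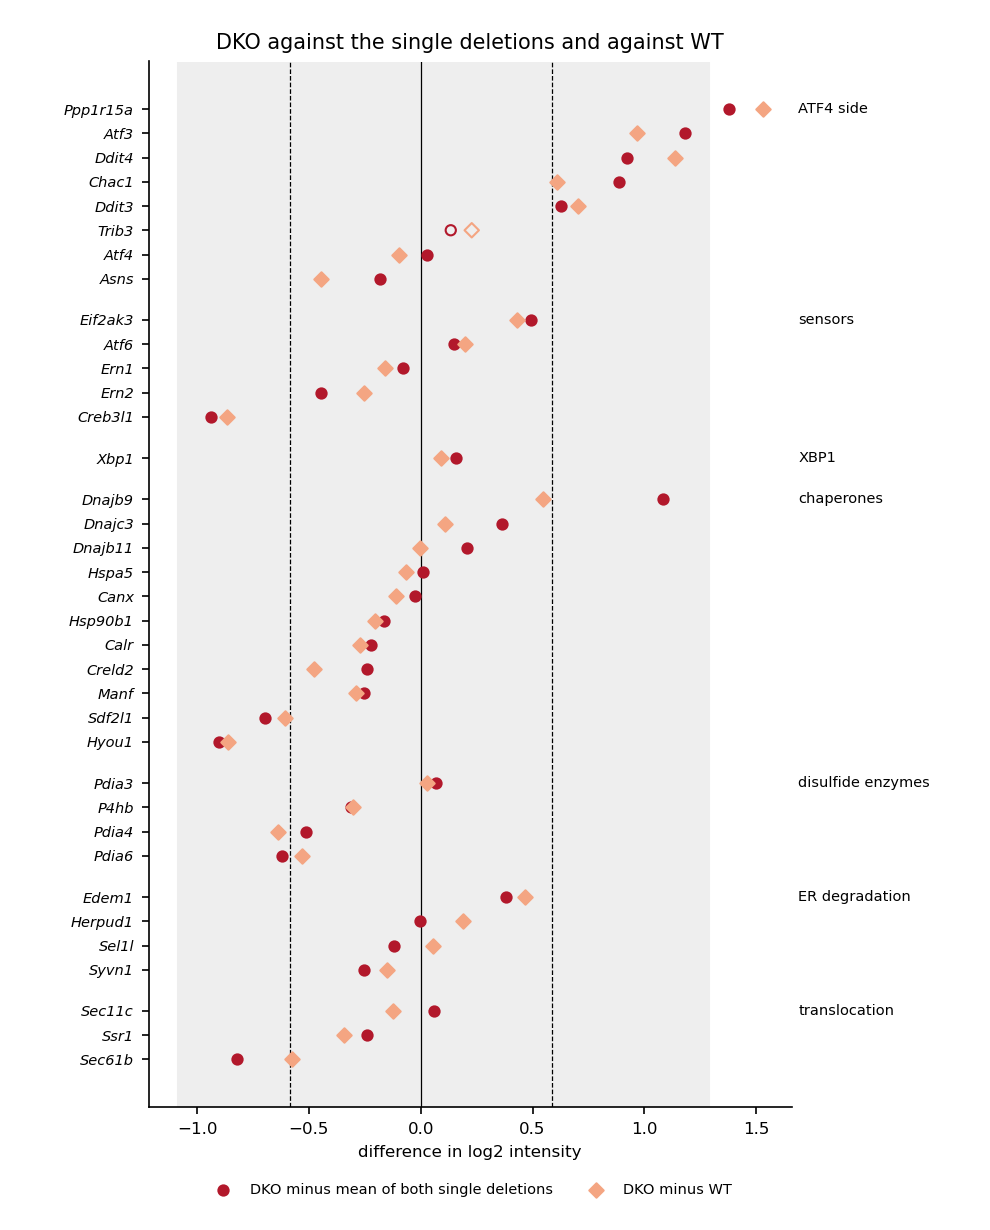
Difference in log2 intensity of each member, DKO minus the mean of both single deletions (circles) and DKO minus WT (diamonds), grouped by role. Dashed lines mark 1.5-fold, the grey band spans the 5th to 95th percentile of all genes for the first difference (-1.09 to 1.29), and open symbols mark Trib3, which lay under the floor of 6. The 5 highest ATF4-side genes lie right of the upper dashed line for both differences.

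The strongest member was Ppp1r15a, which encodes GADD34, the phosphatase subunit that removes phosphate from eIF2 and so ends the translation block. Its log2 intensity was 9.02 on DKO, 7.75 on Bmi1ΔIEC, 7.54 on Mel18ΔIEC and 7.49 on WT. DKO was high and the other 3 arrays spanned 0.25. That is 2.60-fold above the single deletions and 2.88-fold above WT, or 1.38 and 1.53 on the log2 scale. Against the single deletions it lies beyond the 95th percentile of all genes, 1.29.

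Atf3, a stress-induced transcription factor of the ATF family, had 10.77 on DKO, 9.44 on Bmi1ΔIEC, 9.75 on Mel18ΔIEC and 9.81 on WT. It was 2.27-fold higher on DKO than on the single deletions and 1.95-fold higher than on WT. Ddit4 encodes REDD1, an inhibitor of the growth kinase complex mTORC1 that hypoxia and glucocorticoids also induce. It had 10.27 on DKO, 9.51 on Bmi1ΔIEC, 9.19 on Mel18ΔIEC and 9.14 on WT, a difference of 0.92 from the single deletions and 1.14 from WT.

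Chac1, an enzyme that breaks down glutathione, had 8.12 on DKO, 7.05 on Bmi1ΔIEC, 7.42 on Mel18ΔIEC and 7.51 on WT. The Bmi1ΔIEC array was the lowest, so the difference was 1.07 from Bmi1ΔIEC, 0.71 from Mel18ΔIEC and 0.61 from WT. Ddit3 encodes CHOP, a factor linked to cell death under lasting ER stress, and had 7.61 on DKO, 6.88 on Bmi1ΔIEC, 7.11 on Mel18ΔIEC and 6.91 on WT. Its difference of 0.62 from the single deletions was the smallest one past 1.5-fold, and against Mel18ΔIEC alone it was 0.51. Ppp1r15a, Atf3, Ddit4 and Chac1 were thus, on DKO, at least 1.5-fold above each of the other 3 arrays, as were 10.5% of all genes.

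The other 3 genes of the ATF4 side did not stand higher on DKO. Atf4 itself, whose protein level is set largely by translation, had 9.34 on DKO, 9.35 on Bmi1ΔIEC, 9.27 on Mel18ΔIEC and 9.44 on WT, all within 0.17. Asns, the asparagine synthetase, had 10.96 on DKO, 11.24 on Bmi1ΔIEC, 11.04 on Mel18ΔIEC and 11.41 on WT, so DKO was the lowest array, 0.45 below WT. Trib3, a pseudokinase that restrains ATF4, had 5.88 on DKO, 5.91 on Bmi1ΔIEC, 5.57 on Mel18ΔIEC and 5.65 on WT. These values lie under the floor of 6, near background, and set no level.

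**Figure D2:**
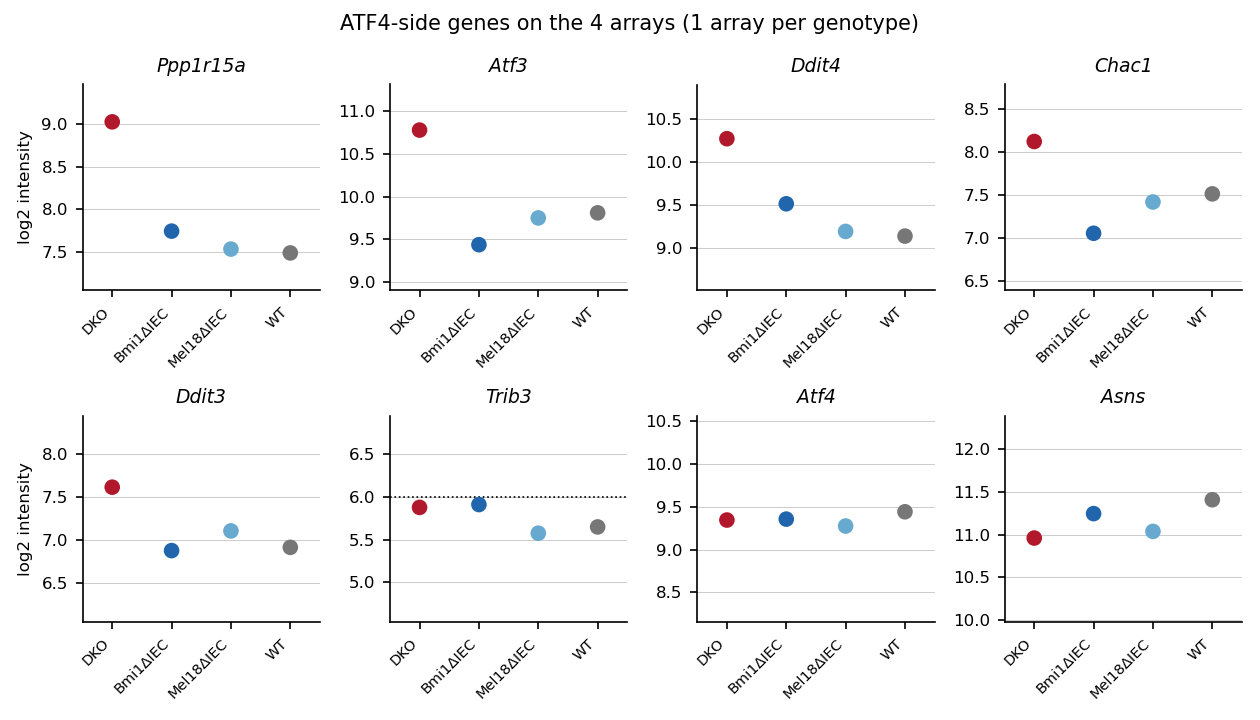
Log2 intensity of the 8 ATF4-side genes on the 4 arrays, 1 point per array, with DKO at the left of each panel. Every panel spans the same log2 range and the dotted line marks the floor of 6. DKO is the highest point for Ppp1r15a, Atf3, Ddit4, Chac1 and Ddit3, but not for Trib3, Atf4 or Asns.

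Promoters of the members were read from RefSeq (build GRCm38.p6, 250 bases before to 50 after the start of transcription), where 30 of the 36 members matched by symbol. Atf6, Creb3l1, Ern2, Hyou1, Manf and Sec11c did not and were not searched. The composite C/EBP-ATF site to which ATF4 dimers bind was searched as TGATGNAAN on both strands. It stood in 4 of 8 ATF4-side promoters (Atf3, Chac1, Trib3 and Asns) and in 1 of 22 on the other side (Herpud1), and in 3.95% of 32851 promoters overall. The 2 promoters below carry this motif and belong to the genes with the largest differences among those that do. Capitals mark the motif, which lies on the opposite strand in both.
Atf3: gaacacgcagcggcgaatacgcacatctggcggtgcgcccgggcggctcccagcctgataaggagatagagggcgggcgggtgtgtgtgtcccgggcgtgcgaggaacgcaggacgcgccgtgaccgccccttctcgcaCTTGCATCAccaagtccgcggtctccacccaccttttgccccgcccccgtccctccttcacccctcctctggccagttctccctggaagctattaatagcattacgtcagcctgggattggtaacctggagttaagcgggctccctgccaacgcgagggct
Chac1: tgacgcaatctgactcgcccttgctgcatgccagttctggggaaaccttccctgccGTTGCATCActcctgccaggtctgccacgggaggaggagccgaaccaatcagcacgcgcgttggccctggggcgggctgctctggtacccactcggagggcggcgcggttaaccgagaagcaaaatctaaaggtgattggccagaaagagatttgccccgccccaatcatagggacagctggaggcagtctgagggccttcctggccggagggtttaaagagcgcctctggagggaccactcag
The Atf3 window is chr1:191183284-191183583 on the minus strand, with the motif 111 bases before the start, and the Chac1 window is chr2:119350992-119351291 on the plus strand, with the motif 194 bases before it. The 4 genes with the motif differed between DKO and the single deletions by 1.18 (Atf3), 0.89 (Chac1), 0.13 (Trib3) and -0.18 (Asns). The motif therefore stood in genes that were higher and in genes that were not.

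Transcripts of the sensor kinases and of Atf6 stayed within 1.5-fold between DKO and the mean of both single deletions. Ern1 (IRE1) had 9.12 on DKO, 9.16 on Bmi1ΔIEC, 9.23 on Mel18ΔIEC and 9.28 on WT, and Atf6 had 9.72 on DKO, 9.42 on Bmi1ΔIEC, 9.72 on Mel18ΔIEC and 9.52 on WT. Eif2ak3, the PERK kinase upstream of ATF4, had 9.51 on DKO, 8.92 on Bmi1ΔIEC, 9.11 on Mel18ΔIEC and 9.08 on WT. DKO was its highest array, and the difference of 0.49 from the mean of both single deletions was the largest positive one that stayed within 1.5-fold. For Eif2ak3 it was 0.40 from Mel18ΔIEC alone. It was just past 1.5-fold from Bmi1ΔIEC alone (0.59), and past it from the mean after cyclic loess (0.65). Ern2 had 9.10 on DKO, 9.54 on Bmi1ΔIEC, 9.56 on Mel18ΔIEC and 9.36 on WT, so DKO was the lowest by 0.26 or more.

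Creb3l1, also called OASIS, is an ER-membrane transcription factor of secretory cells and was the lowest member against the single deletions. It had 9.40 on DKO, 10.32 on Bmi1ΔIEC, 10.35 on Mel18ΔIEC and 10.26 on WT. DKO was 1.91-fold below the single deletions and 1.82-fold below WT, and the other 3 arrays lay within 0.09 of each other. Goblet cell markers were measured beside it and beside Ern2, which was also lower on DKO (-0.45 against the single deletions). Of 9 genes, among them Muc2 and Tff3, 5 were at least 1.5-fold higher on DKO than on the single deletions and 0 lower (median 0.64), while 0 of 9 were 1.5-fold apart from WT. Their summed intensity was 46892 on DKO, 35250 on Bmi1ΔIEC, 34137 on Mel18ΔIEC and 38478 on WT. The part of goblet cell numbers in the levels of Creb3l1 and Ern2 was not tested. Xbp1, the target of IRE1 splicing, had 11.63 on DKO, 11.45 on Bmi1ΔIEC, 11.51 on Mel18ΔIEC and 11.55 on WT, within 0.19.

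On DKO, the ER chaperones Hspa5, Hsp90b1, Calr and Canx lay within 0.3 of the mean of both single deletions and of WT on the log2 scale. Hspa5 (BiP), the central chaperone that also holds the sensors inactive, had 12.08 on DKO, 11.99 on Bmi1ΔIEC, 12.16 on Mel18ΔIEC and 12.15 on WT. DKO lay between the single deletions, 0.01 above their mean. Hsp90b1 (GRP94) and the glycoprotein lectins Calr and Canx differed from the single deletions by -0.17, -0.22 and -0.03, and from WT by -0.20, -0.27 and -0.11. The trophic ER protein Manf gave -0.26 and -0.29, and Creld2, a disulfide-related ER protein, gave -0.24 and -0.48, each against the single deletions and against WT.

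Of the 11 chaperones and co-chaperones, 2 were lower on DKO by 1.5-fold or more, against both the single deletions and WT, a share near the 18.8% and 20.2% of all genes. Hyou1, an exchange factor for BiP, had 9.57 on DKO, 10.25 on Bmi1ΔIEC, 10.71 on Mel18ΔIEC and 10.43 on WT. DKO was the lowest array, by 0.67 from Bmi1ΔIEC and 1.13 from Mel18ΔIEC. Sdf2l1, which works with BiP and ER J-proteins, had 10.03 on DKO, 10.699 on Bmi1ΔIEC, 10.75 on Mel18ΔIEC and 10.64 on WT, 1.62-fold below the single deletions. Together with Creb3l1 they were the 3 members for which DKO lay 1.5-fold or more below each other array, as were 14.6% of all genes. By any amount, DKO was the lowest array for 16 of 28 chaperone and XBP1-side genes (46.0% of all genes) and the highest for 7 (35.2%).

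The J-protein Dnajb9 (ERdj4), which brings BiP to IRE1 and is a well-known target of XBP1, went the other way. It had 10.45 on DKO, 9.29 on Bmi1ΔIEC, 9.45 on Mel18ΔIEC and 9.91 on WT. DKO was the highest array and WT came next, above both single deletions. The difference was 1.08 (2.12-fold) from the single deletions, but 0.55 (1.46-fold) from WT, short of 1.5-fold. The WT array is the one with high levels of seminal vesicle transcripts, whose part in its Dnajb9 level was not tested. The other J-proteins differed by 0.36 (Dnajc3) and 0.20 (Dnajb11) from the single deletions and by 0.11 and -0.00 from WT.

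**Figure D3:**
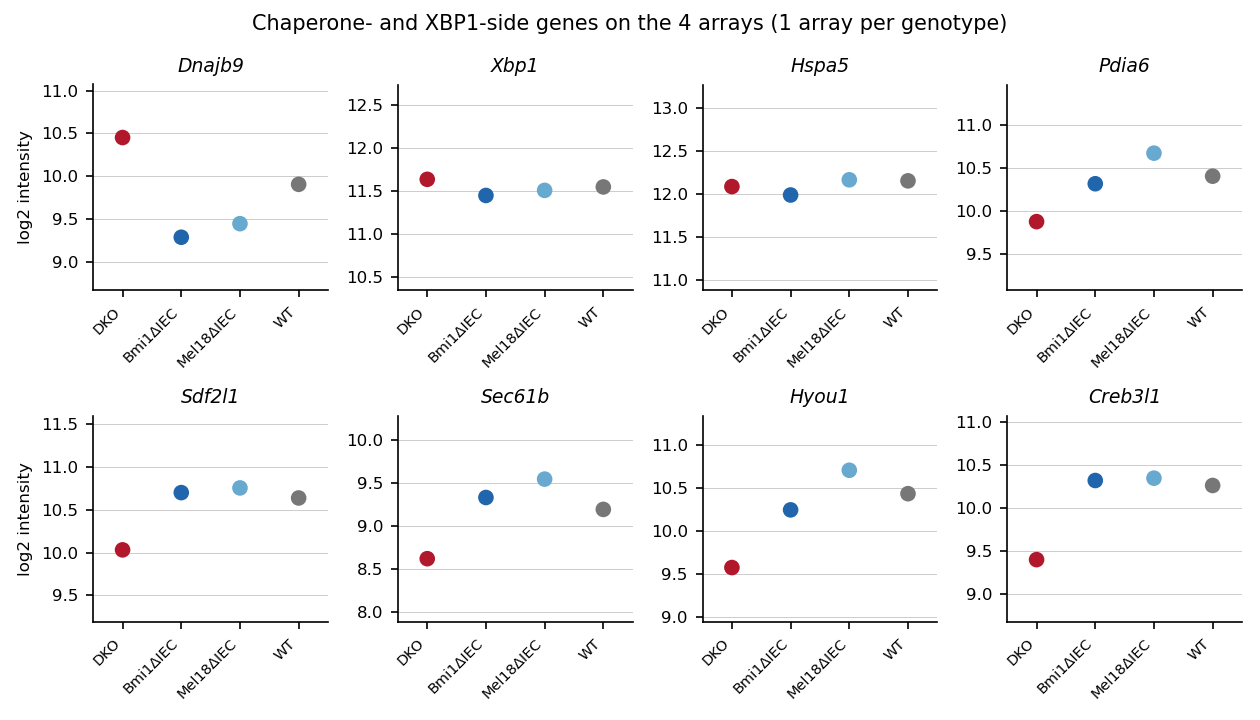
Log2 intensity of 8 genes of the chaperone and XBP1 side on the 4 arrays, 1 point per array, with DKO at the left of each panel. Every panel spans the same log2 range. DKO is the highest point for Dnajb9, the lowest for Pdia6, Sdf2l1, Sec61b, Hyou1 and Creb3l1, and within 0.19 of the others for Hspa5 and Xbp1.

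Of 4 disulfide isomerases, DKO was 1.5-fold or more below the single deletions for 1 (Pdia6) and below WT for 1 (Pdia4), where 18.8% and 20.2% of all genes were, so nothing is read from these counts. Pdia6 had 9.87 on DKO, 10.32 on Bmi1ΔIEC, 10.67 on Mel18ΔIEC and 10.40 on WT, a difference of -0.62 from the single deletions, the smallest one past 1.5-fold in that direction, and -0.53 from WT. Pdia4 had 10.87 on DKO, 11.29 on Bmi1ΔIEC, 11.48 on Mel18ΔIEC and 11.51 on WT, which is -0.51 from the single deletions, just short of 1.5-fold, and -0.64 from WT. A dimmer probe set of Pdia4 gave -0.08 and -0.41 in these comparisons. P4hb, the founding isomerase of the family, gave -0.31 and -0.30, and Pdia3, which assists calreticulin and calnexin, gave 0.07 and 0.03.

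ER-associated degradation, which returns misfolded proteins to the proteasome, had 0 of 4 members 1.5-fold apart between DKO and the single deletions or WT. Over all genes, 14.0% were that much higher and 18.8% lower than on the single deletions, and 14.3% and 20.2% than on WT. With 4 members, nothing is read from this count. Edem1, a lectin that selects misfolded glycoproteins, had 11.21 on DKO, 10.78 on Bmi1ΔIEC, 10.87 on Mel18ΔIEC and 10.74 on WT, with DKO the highest by 0.34 or more. The membrane protein Herpud1 differed by -0.00 and 0.19 from the single deletions and from WT. Sel1l and Syvn1, which form the core ligase complex, gave -0.12 and -0.25 against the single deletions and 0.05 and -0.15 against WT.

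In the entry machinery, Sec61b, the beta subunit of the translocon channel, had 8.62 on DKO, 9.33 on Bmi1ΔIEC, 9.55 on Mel18ΔIEC and 9.19 on WT. DKO was the lowest array, 1.77-fold below the single deletions and 1.49-fold below WT. Its 3 probe sets gave -0.77 to -0.82 against the single deletions. The translocon-associated Ssr1 gave -0.24 and the signal peptidase subunit Sec11c 0.06 against the single deletions, with -0.34 and -0.12 against WT.

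The ER stress element to which ATF6 binds together with NF-Y (ERSE), searched on both strands as CCAAT and CCACG with 9 bases of any kind between them, stood in 8 of 22 chaperone and XBP1-side promoters, in 0 of 8 on the ATF4 side and in 0.119% of all promoters. Its shorter form ERSE-II, ATTGG and CCACG with 1 base between, stood in 2 of 22 (Herpud1 and Dnajb11) and in 0.0365% of all. The XBP1-type element TGACGTGG stood in 0 member promoters and in 0.676% of all. No pair of these motifs overlapped in a member. The 3 promoters below carry ERSE and belong to the genes with the largest differences, in either direction, among those with ERSE or ERSE-II. Capitals mark the element.
Pdia6: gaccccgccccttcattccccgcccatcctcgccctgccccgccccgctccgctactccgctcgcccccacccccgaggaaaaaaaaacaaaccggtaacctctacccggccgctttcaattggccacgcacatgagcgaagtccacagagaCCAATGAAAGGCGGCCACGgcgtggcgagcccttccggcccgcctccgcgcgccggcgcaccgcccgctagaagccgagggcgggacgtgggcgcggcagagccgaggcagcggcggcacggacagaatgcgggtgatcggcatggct
Dnajc3: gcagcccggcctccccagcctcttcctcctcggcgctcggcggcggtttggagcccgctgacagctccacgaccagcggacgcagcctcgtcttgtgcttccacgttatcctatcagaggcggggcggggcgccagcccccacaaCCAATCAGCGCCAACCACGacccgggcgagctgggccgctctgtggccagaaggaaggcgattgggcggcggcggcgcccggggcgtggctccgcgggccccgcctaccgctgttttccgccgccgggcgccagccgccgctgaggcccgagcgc
Syvn1: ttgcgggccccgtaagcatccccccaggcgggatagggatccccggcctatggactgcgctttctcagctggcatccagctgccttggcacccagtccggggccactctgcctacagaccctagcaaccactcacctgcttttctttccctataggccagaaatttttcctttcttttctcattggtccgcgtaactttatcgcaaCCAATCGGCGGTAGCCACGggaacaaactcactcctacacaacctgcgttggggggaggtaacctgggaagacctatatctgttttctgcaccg
All 3 lie on the plus strand, at chr12:17266339-17266638 (Pdia6), chr14:118937682-118937981 (Dnajc3) and chr19:6046326-6046625 (Syvn1), with the element starting 98, 105 and 44 bases before the start of transcription. The 8 genes with ERSE were Hspa5, Hsp90b1, Calr, Canx, Pdia6, Dnajc3, Creld2 and Syvn1. Their differences between DKO and the single deletions ran from -0.62 to 0.36 with a median of -0.19, and against WT from -0.53 to 0.11 with a median of -0.18. Of the members that lay further out, Dnajb9, Sdf2l1 and Sec61b had no match to these letters in this window, and Hyou1 and Creb3l1 were among those not searched.

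With 1 exception, the members lay within 1.5-fold of WT on both single-deletion arrays. Most of all genes did so too, so little is read from these counts. On Bmi1ΔIEC, none of 35 members reached 1.5-fold above WT (0, against 2.02% of all genes) and 1 was that far below it (1.53% of all genes). The lower one was Dnajb9 (-0.62), and at 2-fold 0 members were lower (0.359% of all genes). On Mel18ΔIEC, 0 were higher and 0 lower, where 1.19% and 2.35% of all genes were, and the values ran from -0.46 (Dnajb9) to 0.35 (Sec61b). The ATF4-side median was -0.09 on Bmi1ΔIEC and -0.06 on Mel18ΔIEC, and the chaperone and XBP1-side median -0.10 and 0.03. Ddit4 (0.38) and Ppp1r15a (0.25) were above WT on Bmi1ΔIEC, while Chac1 (-0.46), Atf3 (-0.37) and Asns (-0.16) were below it. The 5th and 95th percentiles of all genes for this difference were -0.38 and 0.36, and Chac1 and Ddit4 lay outside them. The error scale of 0.41 was drawn from contrasts that include DKO, so it is wide for this pair of arrays.

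**Figure D4:**
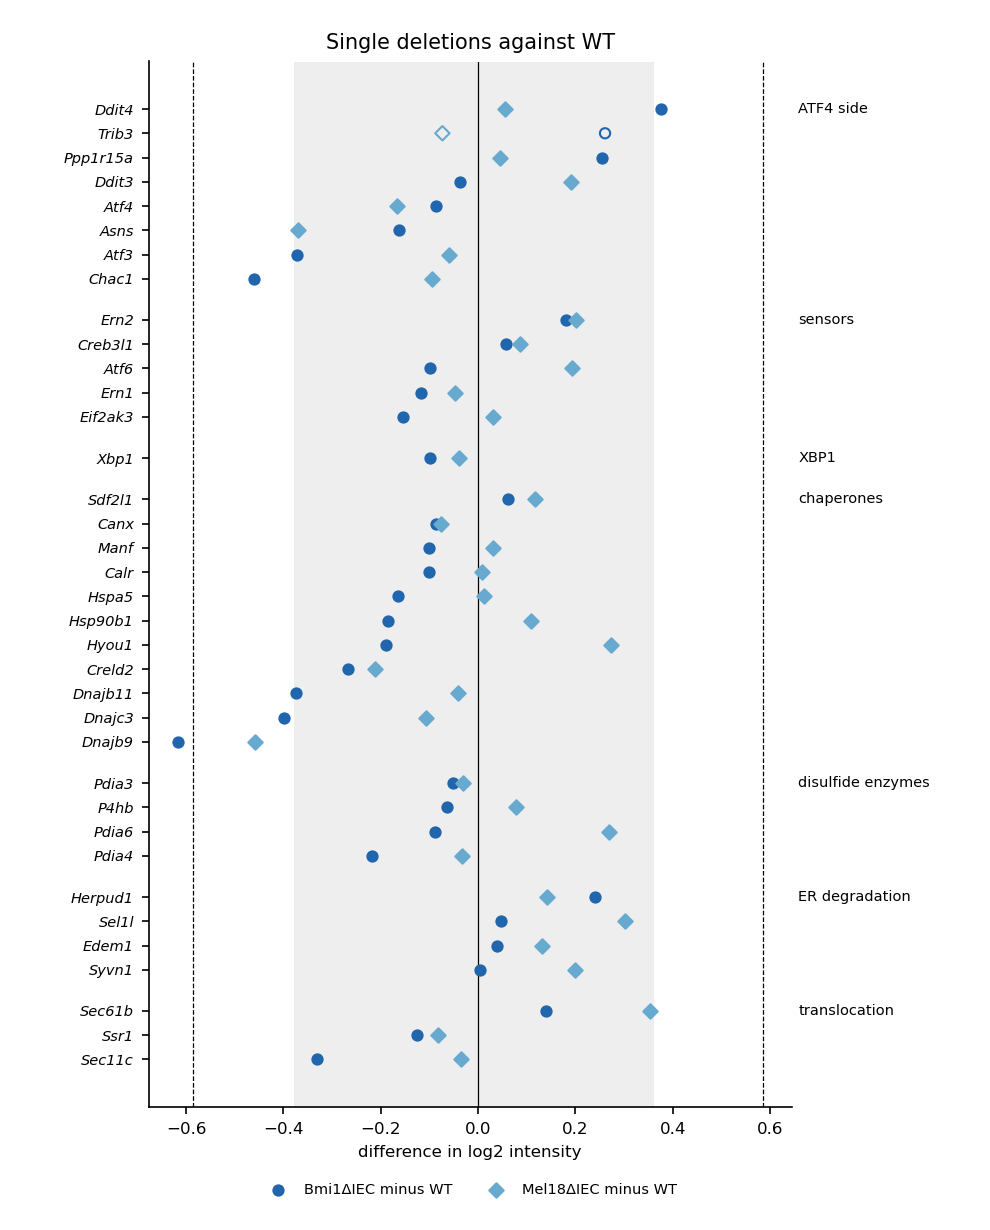
Difference in log2 intensity of each member for Bmi1ΔIEC minus WT (circles) and Mel18ΔIEC minus WT (diamonds), grouped by role. Dashed lines mark 1.5-fold, the grey band spans the 5th to 95th percentile of all genes for Bmi1ΔIEC minus WT (-0.38 to 0.36), and open symbols mark Trib3. Only Dnajb9 on Bmi1ΔIEC lies past a dashed line.

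Set against each other, Bmi1ΔIEC and Mel18ΔIEC differed little. Of the 28 chaperone and XBP1-side genes 27 were lower on Bmi1ΔIEC than on Mel18ΔIEC, where 56.2% of all genes were, with a median of -0.15 against -0.03 for all genes. The exception was Herpud1 (0.10). The related ER lists had 23 of 27 translocation and glycosylation genes, 21 of 24 degradation genes and 20 of 25 folding enzymes lower, while the ATF4 side had 4 of 7 higher and 3 lower (median 0.08). Hyou1 (-0.46), Pdia6 (-0.36) and Dnajb11 (-0.33) differed most, and 0 of 35 members reached 1.5-fold either way, where 3.26% of all genes were higher and 1.24% lower. Neutrophil markers differed between the same arrays by a median of 2.56, with 11 of 12 at least 1.5-fold higher on Bmi1ΔIEC. Their part in these differences was not tested.

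Other genes of these pathways, from lists chosen with earlier results of these data known, lay on both sides. Over 8 lists, 164 genes were analysed, of which 22 were at least 1.5-fold higher on DKO than on the single deletions and 34 lower (median -0.19), shares near those of all genes. Among 31 further ATF4 targets 9 were higher and 10 lower, with a median of -0.13, where 14.0% and 18.8% of all genes were. Both shares of this list were thus above those of all genes, in opposite directions. The furthest were the neutral amino acid transporters Slc1a4 (-2.07) and Slc7a5 (-1.83), the mitochondrial serine enzyme Shmt2 (-1.63) and, on the higher side, the cystine transporter Slc7a11 (1.48). Slc7a11 was also 1.13 higher on Bmi1ΔIEC than on Mel18ΔIEC. Among 13 eIF2 kinase, eIF2 and phosphatase genes 3 were higher and 5 lower, also above the 14.0% and 18.8% of all genes. The eIF2B subunits Eif2b1 (-1.55), Eif2b3 (-1.34) and Eif2b4 (-1.01), which recharge eIF2, were lower, and the RNA-activated kinase Eif2ak2 (0.92) was higher.

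Of 25 other folding and disulfide enzymes 10 were lower and 3 higher (median -0.43), with the glucosidase Mogs (-1.34) and the prolyl isomerase Fkbp11 (-1.02) among the lower, and the ER oxidase Ero1a (1.63) and the sulfhydryl oxidase Qsox1 (1.49) the highest. Of 27 translocation, signal peptidase and glycosylation genes 5 were lower and 0 higher (median -0.36), led by the signal recognition subunit Srp68 (-0.91) and by Ddost (-0.89), Rpn1 (-0.88) and Rpn2 (-0.70) of the oligosaccharyltransferase. Degradation genes had 2 of 24 lower and 0 higher (median -0.15), with Edem2 at -0.67 and Rnf5 at -0.59. Coat and export genes had 1 of 21 lower, the cargo receptor Lman1 (-0.66), and a median of -0.02. Of 15 membrane-bound stress factors and their partners 4 were higher and 1 lower, among them Creb3l3 (1.91), a liver and gut relative of Creb3l1, and the stress kinase Mapk8 (0.92), against the ATF6 protease Mbtps1 (-0.74). Among 9 death genes linked to ER stress 4 were higher and 0 lower, with a median of 0.05. The 4 were Pmaip1 (2.01) and Bcl2l11 (1.47), which encode BH3-only proteins, Casp4 (1.03), and Ero1a, which is also counted among the folding enzymes above. Over all genes analysed, 14.0% were that much higher than on the single deletions and 18.8% lower. Against WT 3 of these death genes were higher and 0 lower, and Casp4 differed by 0.50. Casp12 and Bbc3 lay under the floor of 6.

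**Figure D5:**
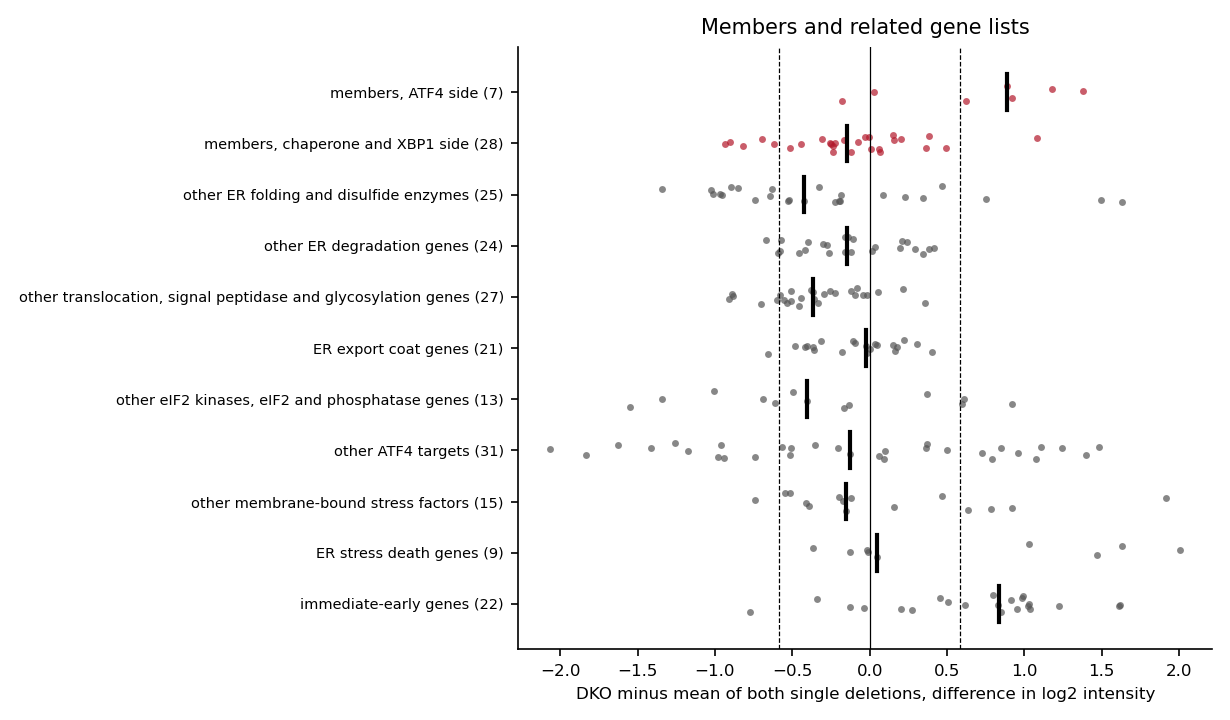
Difference in log2 intensity between DKO and the mean of both single deletions for the members (red) and for related gene lists (grey), 1 point per analysed gene, with the number of genes in brackets and a bar at the median. Dashed lines mark 1.5-fold. The medians of the ATF4-side members (0.89) and of the immediate-early genes (0.84) lie right of the upper dashed line, and the other medians lie between the dashed lines.

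Several of the higher ATF4-side genes are also induced by signals outside this pathway, so related transcripts were measured beside them. Immediate-early genes, which respond within minutes to growth factors, cytokines or handling of tissue, were listed after the members' values had been seen. Of 22, 14 were at least 1.5-fold higher on DKO than on the single deletions and 1 lower (Myc, -0.77), with a median of 0.84, among them the phosphatase Dusp1 (1.62), the nuclear receptor Nr4a1 (1.61) and Jun (1.23). Against WT 13 were higher and 1 lower (median 0.69). Of all genes, 14.0% were that much higher and 18.8% lower than on the single deletions, and 14.3% and 20.2% than on WT. The same shares apply to the cell marker lists that follow. The summed intensity of the immediate-early genes was 18985 on DKO, 12340 on Bmi1ΔIEC, 9950 on Mel18ΔIEC and 11221 on WT. Neutrophil markers summed to 24682 on DKO, 14072 on Bmi1ΔIEC, 1930 on Mel18ΔIEC and 5489 on WT, and mononuclear phagocyte markers to 14598, 4562, 3310 and 4219 on the same arrays. Between Bmi1ΔIEC and Mel18ΔIEC, neutrophil markers differed by a median of 2.56 and mononuclear phagocyte markers by 0.57. On the same pair of arrays Ppp1r15a differed by 0.21, Ddit4 by 0.32, Ddit3 by -0.23, Atf3 by -0.31 and Chac1 by -0.37. Nothing is read from this 1 pair about the source of the members' levels. Fibroblast markers summed to 7669 on DKO, 4516 on Bmi1ΔIEC, 1828 on Mel18ΔIEC and 2737 on WT. The DKO sum came mostly from Vim, which had 12.12 on DKO, 11.26 on Bmi1ΔIEC, 9.32 on Mel18ΔIEC and 10.40 on WT. Of 8 analysed, 5 were at least 1.5-fold higher on DKO than on the single deletions and 0 lower (median 0.72), and 7 were higher than on WT (median 0.82). Of 7 analysed plasma cell genes, a cell type that carries high XBP1, 2 were that much higher on DKO than on the single deletions (Jchain, 2.66, and Prdm1, 1.19) and 1 lower (Cd79a, -0.67), with a median of 0.39. Against WT 3 were higher and 0 lower (median 0.36). Their summed intensity was 2674 on DKO, 1732 on Bmi1ΔIEC, 1904 on Mel18ΔIEC and 1606 on WT. The largest part on each array was Sdc1, with 10.19 on DKO, 10.19 on Bmi1ΔIEC, 10.17 on Mel18ΔIEC and 10.07 on WT. The defining marker Tnfrsf17 lay under the floor of 6 on all 4 arrays, while Mzb1 reached 6.01 on DKO alone. The part of any of these cells or signals in the members' levels was not tested.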

How the data were processed

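Per the submitters' processing notes, the authors used Affymetrix Expression Console with RMA on Mouse Gene 1.0 ST arrays, and the deposited values are intensities on a linear scale. RMA's quantile step hides any shift common to most genes. Software versions were not given in the sources used here. Of 35556 probe sets, 21789 carried 1 gene symbol in the platform annotation, 1621 several and 12146 none listed. Only the first were named, and the probe set brightest on average over the 4 arrays was taken where a gene had several (999 genes). A single array per genotype limits the precision, as does background near the floor.

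Log2 was taken, and differences, counts and medians were computed in Python 3.11.15 with numpy 2.4.6 and pandas 2.3.3, and cyclic loess with limma 3.58.1 in R 4.3.3. The fold counts and the motif search were checked for coding errors on simulated data without noise. That check does not measure the error of an array. The error scale is the smallest scaled median absolute deviation of the 3 orthogonal contrasts. All members are named, with up to 4 genes per related list by size of difference. Members, lists and comparisons were chosen with earlier results of these data known. Motifs were searched in RefSeq promoters. Protein sequences were not used here. Alternatives were other floors, scalings, a pseudocount of 32, the mean of probe sets, 2-fold, and other arrays set against DKO.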

Additional observations from a re-analysis of the deposited data

Results flagged for a closer look

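Dnajb9 was singled out because the difference with loss of Bmi1 had opposite signs in the 2 backgrounds and was past 1.5-fold in both. With Mel18 also deleted (DKO minus Mel18ΔIEC) it was 1.00, and with Mel18 present (Bmi1ΔIEC minus WT) it was -0.62 on the log2 scale. Each rests on 1 pair of arrays, and the difference between them was not tested. Opposite signs with a smaller second value were also seen for Atf3 (1.02 and -0.37) and Chac1 (0.71 and -0.46) with loss of Bmi1, and for Dnajb9 with loss of Mel18 (1.16 for DKO minus Bmi1ΔIEC and -0.46 for Mel18ΔIEC minus WT) and for other members, with no second pair past 1.5-fold in both backgrounds. Every value with the other gene present contains the WT array, which carried seminal vesicle transcripts.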

How the results depend on the processing

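No paired analysis was possible because each genotype had 1 array. Medians of either side moved by less than the error scale under every alternative run. That scale describes the difference of a single gene, so it is a wide bound for a median. Against the single deletions, the chaperone and XBP1-side median went from -0.14 to 0.06 after cyclic loess. No member past 1.5-fold changed sign. At 2-fold, the ATF4 side had 2 genes higher against the single deletions and 2 against WT (Ppp1r15a with Atf3, and Ppp1r15a with Ddit4), and the chaperone and XBP1 side had 0 lower in either comparison, while 0 members were lower on Bmi1ΔIEC than on WT. After cyclic loess the chaperone and XBP1 side had 2 higher and 3 lower against the single deletions (Eif2ak3 joined, Sdf2l1 and Pdia6 left) and 2 higher and 2 lower against WT. With log2 of the value plus 32, 3 ATF4-side genes were higher than on WT, without Ddit3 and Chac1. Against Bmi1ΔIEC alone, added after the data were seen, the chaperone and XBP1 side had 2 higher. In the comparison with the single deletions, Ddit3 was lost with a floor of 8, with median centring, with 32 added or against Mel18ΔIEC alone. Median centring also took Chac1 out of the genes higher than on WT and added Pdia6 and Sec61b to the lower. Without a floor the share of all genes lower on DKO was 12.0% against the single deletions and 12.9% against WT. Averaging the probe sets of a gene left Pdia4 within 1.5-fold of WT. Trib3, near background, could not be judged.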

Other observations

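Within the further ATF4 targets, a sublist of amino acid and one-carbon enzymes was written after its values were seen, so its counts are a description only. Of 9 analysed, DKO lay 1.5-fold or more below the single deletions for 6 and above them for 0, with a median of -0.96. Psph (-0.52), Mthfd2 (-0.51) and Gpt2 (-0.36) stayed within 1.5-fold. Phgdh, which begins serine synthesis, had 6.62 on DKO, 7.95 on Bmi1ΔIEC, 7.81 on Mel18ΔIEC and 7.65 on WT. Psat1, the next enzyme, had 8.09 on DKO, 9.12 on Bmi1ΔIEC, 9.02 on Mel18ΔIEC and 9.24 on WT. DKO was the lowest array for both. Cth, which makes cysteine from cystathionine, differed by -1.41 and Aldh18a1, of proline synthesis, by -0.96. Against WT the list also had 6 lower and 0 higher (median -1.03).

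Ero1a, the ER oxidase that hypoxia also induces, had 12.31 on DKO, 10.53 on Bmi1ΔIEC, 10.83 on Mel18ΔIEC and 10.84 on WT, so DKO was high while its partner isomerases P4hb and Pdia4 were not. Vegfa, counted among the further ATF4 targets and also induced by hypoxia, was 1.40 higher on DKO than on the single deletions and was picked after its value was seen. The part of hypoxia in either level was not tested.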
